A study of Mus musculus with 19 samples.

Results

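Ion channels of nociceptors, the sensory neurons that detect damaging stimuli, were followed in sciatic nerve samples of DBA/2J mice, an inbred strain. The group held 9 genes picked by name, Scn9a, Scn10a, Scn11a, Trpv1, Trpa1, Trpm8, P2rx3, Asic3 and Piezo2, out of 18193 genes with a symbol on the array. Each was represented by the probe set with the highest mean over all 19 arrays among those that carry only its symbol. The genes were chosen with their values known, together with a split of the arrays into 14 with log2 Isl1 above 8 and 5 below 8. Isl1 is a transcription factor of sensory neurons.

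The 4 groups were diabetic mice given streptozotocin (STZ) and rosiglitazone (4 arrays above and 1 below the Isl1 limit), diabetic mice given STZ and vehicle (2 above, 3 below), control mice given rosiglitazone (4 above, 1 below) and control mice given vehicle (4 above, none below). STZ destroys insulin-producing cells and models type 1 diabetes chemically, and rosiglitazone activates PPAR gamma, a nuclear receptor of fat and glucose metabolism. The series asked how the drug affects diabetic neuropathy, and its design text gives 1 array for each of 5 mice per group, with 1 control array excluded by the authors for quality. Age, sex, doses and durations are not given in the sources used here.

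Arrays are written DR, DV, CR and CV for diabetic rosiglitazone, diabetic vehicle, control rosiglitazone and control vehicle, with the number of their title. Values are log2 of the deposited intensity. Median intensity per array was 93.3 to 101.7 on the 14 arrays and 83.3 to 88.0 on the 5, without overlap. The part of this in differences between the 2 sets was not tested. Isl1 ranged from 9.47 to 11.35 on the 14 arrays and from 3.83 to 6.41 on the other 5. Array DR719 at 9.47 was the nearest above the limit, and array CR715 at 6.41 was the nearest below it. Pmp22, a peripheral myelin protein, was at 14.08 to 14.24 on the 14 arrays and 13.82 to 14.34 on the 5, and Mbp, a myelin protein of Schwann cells and of oligodendrocytes, at 14.11 to 14.33 and 13.83 to 14.44. Other markers went against a sample of nerve trunk alone. On 12 of the 14 arrays the oligodendrocyte genes Mog and Mobp were at 7.60 to 9.82 and 10.16 to 12.25, and the astrocyte genes Gfap and Aqp4 at 11.64 to 12.36 and 10.76 to 12.72. Slc17a6, a glutamate transporter of neurons, was at 9.12 to 11.82 on all 14 arrays and at 2.69 to 5.05 on the 5. The labels do not record the dissection, and sciatic nerve is used here only as the label of the samples. The 3 motor neuron and spinal interneuron genes Chat, Mnx1 and Slc6a5 stayed between 2.54 and 4.59 on all 19 arrays. The interneuron gene Gad1 reached 8.28 on arrays above the Isl1 limit but was under 5.54 on 11 of those 14.

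Voltage-gated sodium channels carry the upstroke of the action potential, and those encoded by Scn9a, Scn10a and Scn11a set the excitability of pain fibres. The other channels turn a stimulus into a current at the nerve ending, which the sodium channels then amplify and carry along the axon. The cell bodies of these neurons lie in dorsal root ganglia, outside the nerve trunk, so channel mRNA in a nerve sample can come from axons or from ganglion tissue.

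Promoters from 250 bases before to 50 after the start site were available for 6 of the 9 genes in RefSeq's table (GRCm38.p6), and 4 are shown. Scn10a and Scn11a lie next to each other on chromosome 9 on the same strand, and their values correlated most strongly of all pairs (r = 0.993). P2rx3, on chromosome 2, came close with r = 0.985 for Scn11a and 0.983 for Scn10a. Trpv1 had the largest residual spread around the neuronal content of the arrays, and Trpm8 was dim on all of them. Capitals mark matches to 4 motifs searched on both strands.
Scn10a promoter, chr9:119718983-119719282, minus strand: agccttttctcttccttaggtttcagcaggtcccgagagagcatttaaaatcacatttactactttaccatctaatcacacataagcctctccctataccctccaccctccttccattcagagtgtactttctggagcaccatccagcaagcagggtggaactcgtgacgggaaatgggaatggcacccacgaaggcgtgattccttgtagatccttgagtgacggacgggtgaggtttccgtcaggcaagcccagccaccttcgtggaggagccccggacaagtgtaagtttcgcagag
Scn11a promoter, chr9:119825407-119825706, minus strand: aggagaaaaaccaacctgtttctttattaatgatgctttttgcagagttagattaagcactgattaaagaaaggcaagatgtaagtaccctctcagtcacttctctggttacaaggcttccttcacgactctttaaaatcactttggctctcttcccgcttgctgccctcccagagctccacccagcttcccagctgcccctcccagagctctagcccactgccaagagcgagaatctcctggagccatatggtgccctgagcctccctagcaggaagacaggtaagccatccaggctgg
Trpv1 promoter, chr11:73233899-73234198, plus strand: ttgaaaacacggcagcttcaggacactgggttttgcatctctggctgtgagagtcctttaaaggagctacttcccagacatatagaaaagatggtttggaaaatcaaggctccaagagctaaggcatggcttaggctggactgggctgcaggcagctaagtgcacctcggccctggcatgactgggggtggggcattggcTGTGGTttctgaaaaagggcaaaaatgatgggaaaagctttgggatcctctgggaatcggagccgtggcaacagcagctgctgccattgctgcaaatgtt
Trpm8 promoter, chr1:88306485-88306784, plus strand: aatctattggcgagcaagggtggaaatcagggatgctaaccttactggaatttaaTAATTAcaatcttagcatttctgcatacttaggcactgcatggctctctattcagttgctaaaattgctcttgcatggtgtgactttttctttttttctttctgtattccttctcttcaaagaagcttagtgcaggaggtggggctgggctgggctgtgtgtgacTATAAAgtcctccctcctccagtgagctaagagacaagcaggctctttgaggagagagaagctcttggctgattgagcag
The homeodomain core TAATTA, a site type of homeodomain factors, occurred in the Trpm8 promoter at -195 from the start site, in 1 of the 6 channel promoters against 5.29% of all 32851 promoters of this length. The Runx letters TGTGGT, bound by Runx factors that act in sensory neuron development, occurred in the Trpv1 promoter at -50 and in the Asic3 promoter at -228, against 16.8% of all promoters. TATAAA, the TATA box, occurred in the Trpm8 promoter at -30, against 13.6% of all promoters, and the cyclic AMP response element TGACGTCA occurred in none of the 6, against 1.79%. The promoters of Scn10a and Scn11a held none of these letters, and their GC content was 51.7% and 50.3%. These matches are letters in a window, and binding was not measured.

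Across the 19 arrays, 6 of the 9 channel genes had every one of the 14 arrays above every one of the 5. They were Scn9a, Scn10a, Scn11a, Trpa1, P2rx3 and Asic3. Trpv1 came close, with an overlap of 1 array on each side, while Piezo2 and Trpm8 overlapped widely. The arrays were split by a neuronal transcript and the genes were picked with the pattern known, so these values are a description without a test. Of 13460 genes above the low-value filter, 4.39% did not overlap and were higher on the 14 arrays and 1.56% were lower. A smaller number of neurons in a sample and less RNA per neuron cannot be told apart in bulk tissue.

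Scn9a encodes the sodium channel that amplifies small depolarisations in pain fibres. It was at 10.72, 10.47, 8.72 and 10.40 on the DR arrays of the 14, 10.86 and 10.09 on the DV arrays, 9.64, 10.62, 10.28 and 9.84 on the CR arrays and 9.38, 9.79, 9.73 and 8.96 on the CV arrays. On the 5 other arrays it was at 2.84 (DR716), 5.24, 3.98 and 4.48 (DV706, DV707 and DV709) and 3.004 (CR715). All 5 low values were under 5.54, the filter used to leave dim genes out of the tests, so only a bound can be given. The mean of the 14 arrays was at least 21.4-fold higher than that of the 5, with values under the filter raised to it here and for the genes below.

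Scn10a encodes the sodium channel, resistant to tetrodotoxin, that carries most of the action potential upstroke in nociceptors. It was at 9.61, 9.66, 7.74 and 9.63 on the DR arrays, 10.10 and 8.83 on the DV arrays, 8.76, 9.63, 9.16 and 9.11 on the CR arrays and 8.001, 8.63, 9.11 and 7.77 on the CV arrays with Isl1 above 8. On the other arrays it was at 4.598 (DR716), 5.05, 5.26 and 3.82 (DV706, DV707 and DV709) and 5.15 (CR715). All 5 of the low values were under the filter, and the mean of the 14 arrays was at least 10.8-fold higher.

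Scn11a encodes the slow sodium channel that sets resting excitability in the same cells. It was at 11.97, 11.90, 10.36 and 11.78 on the DR arrays, 12.07 and 11.31 on the DV arrays, 11.21, 11.84, 11.57 and 11.40 on the CR arrays and 10.59, 11.07, 11.41 and 10.44 on the CV arrays. The other arrays gave 5.82 (DR716), 7.38, 4.41 and 5.21 (DV706, DV707 and DV709) and 5.47 (CR715). Of the 5, 3 were under the filter, and the mean of the 14 arrays was at least 41.9-fold higher. Array DV706 at 7.38 lay well above the next highest of the 5, DR716, and 2.98 below the lowest of the 14.

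Trpv1, the receptor for capsaicin and noxious heat, was at 9.75, 9.37, 6.40 and 8.74 on the DR arrays, 9.65 and 9.38 on the DV arrays, 8.34, 9.79, 9.37 and 8.81 on the CR arrays and 7.78, 9.31, 8.94 and 8.76 on the CV arrays. It was at 6.05 on array DR716, 6.16, 4.42 and 4.91 on arrays DV706, DV707 and DV709 and 6.43 on array CR715. Array DR719, at 6.40, thus lay just under array CR715, at 6.43, and was the only one of the 14 in the range of the 5. Of the 5, 2 were under the filter, and the mean of the 14 arrays was at least 7.67-fold higher.

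Trpa1, the receptor for mustard oil and other irritants, was at 7.47, 7.06, 5.40 and 6.97 on the DR arrays, 7.83 and 6.56 on the DV arrays, 6.40, 7.14, 6.84 and 6.68 on the CR arrays and 6.69, 5.82, 6.58 and 6.36 on the CV arrays. The 5 other arrays gave 2.73 (DR716), 3.71, 3.56 and 2.58 (DV706, DV707 and DV709) and 3.20 (CR715), all under the filter. The mean of the 14 arrays was at least 2.23-fold higher. Array DR719 at 5.40 was itself under the filter.

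Trpm8, the receptor for cold and menthol, ranged from 3.28 to 4.18 on the 14 arrays with a median of 3.57, and from 3.30 to 3.55 on the 5 arrays with a median of 3.51. It was under the filter on all 19 arrays and was not tested, so its transcript was not distinguishable from dim signal in either set.

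P2rx3, a subunit of the ATP receptor of sensory endings, was at 10.97, 10.75, 8.85 and 10.90 on the DR arrays, 11.27 and 10.09 on the DV arrays, 10.27, 10.80, 10.47 and 10.09 on the CR arrays and 9.18, 9.97, 10.44 and 9.13 on the CV arrays. On the other arrays it was at 4.33 (DR716), 4.28, 5.997 and 4.70 (DV706, DV707 and DV709) and 4.77 (CR715). Of the 5, 4 were under the filter, and the mean of the 14 arrays was at least 24.1-fold higher. The highest of the 5, DV707, lay 2.86 below the lowest of the 14.

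Asic3, an acid-sensing channel of muscle and skin afferents, was at 10.21, 9.80, 7.32 and 9.49 on the DR arrays, 10.37 and 9.36 on the DV arrays, 9.15, 9.52, 9.29 and 8.71 on the CR arrays and 7.76, 9.17, 8.31 and 7.46 on the CV arrays. The 5 other arrays gave 5.64 (DR716), 5.24, 5.19 and 5.86 (DV706, DV707 and DV709) and 5.65 (CR715). Of the 5, 2 were under the filter, and the mean of the 14 arrays was at least 10.2-fold higher, with a gap of 1.47 between the sets.

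Piezo2, the mechanically gated channel of light touch and proprioception, was at 12.68, 12.62, 12.15 and 12.77 on the DR arrays, 12.91 and 12.44 on the DV arrays, 12.64, 12.51, 12.45 and 12.35 on the CR arrays and 12.28, 12.22, 12.41 and 11.99 on the CV arrays. It was at 11.97 on array DR716, 12.29, 11.76 and 12.44 on arrays DV706, DV707 and DV709 and 11.17 on array CR715. The means differed by 0.53, or 1.44-fold, and arrays DV706 and DV709, with Scn9a at 5.24 and 4.48, held Piezo2 in the middle of the range of the 14. Piezo2 followed the split between the 14 and the 5 arrays only in part, with arrays CR715, DV707 and DR716 below all of the 14. Within the 14 arrays it did follow the neuronal content level described below (r = 0.87), with the flattest slope of the tested channels, 0.44.

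**Figure D1:**
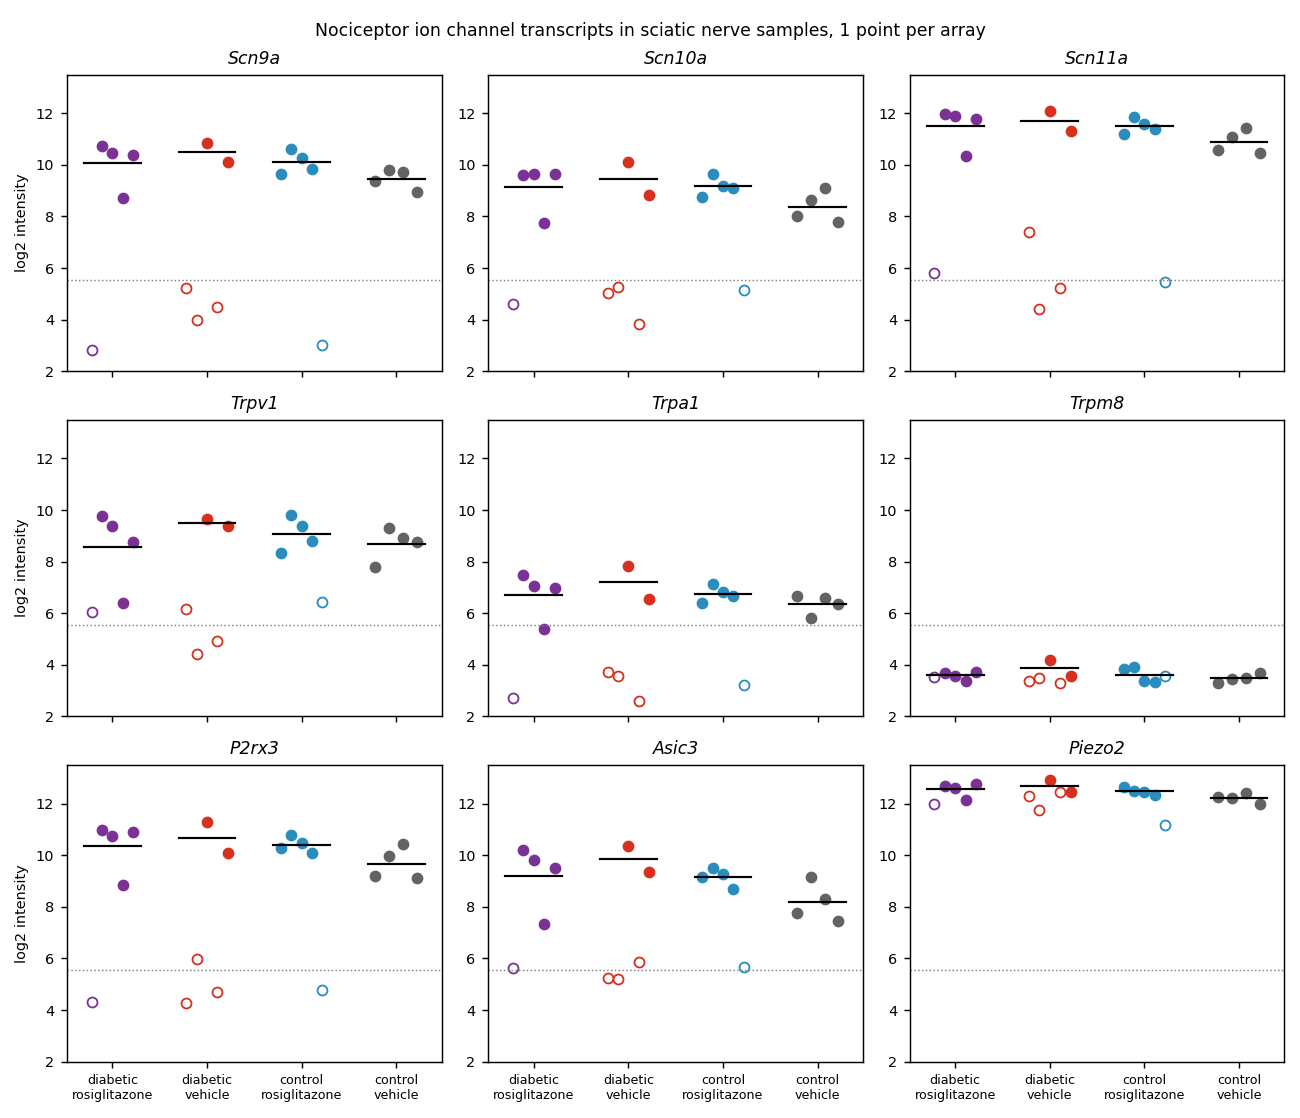
Log2 intensity (vertical axes) of the 9 channel genes, 1 point per array, in diabetic rosiglitazone, diabetic vehicle, control rosiglitazone and control vehicle mice. Filled points are the 14 arrays with log2 Isl1 above 8, bars are their group means, open points are the 5 arrays below 8 and the dotted line is the filter at 5.54; open points lie apart from filled ones in 6 genes, touch them in Trpv1 and mix with them in Trpm8 and Piezo2.

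Other probe sets of the same genes were compared, since each gene rested on 1 probe set in the main values. The 9 genes had 16 probe sets, of which 10 separated the 14 arrays from the 5. For Scn9a, 4 of 5 did, while the remaining one had a range of 4.48 to 6.94 on the 14 arrays and 3.67 to 4.82 on the 5. For P2rx3, 2 of 3 did, and the remaining one was under the filter on all 19 arrays. Neither probe set of Piezo2 did, and its dimmer one differed by 0.03. The other 6 genes had 1 probe set each.

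**Figure D2:**
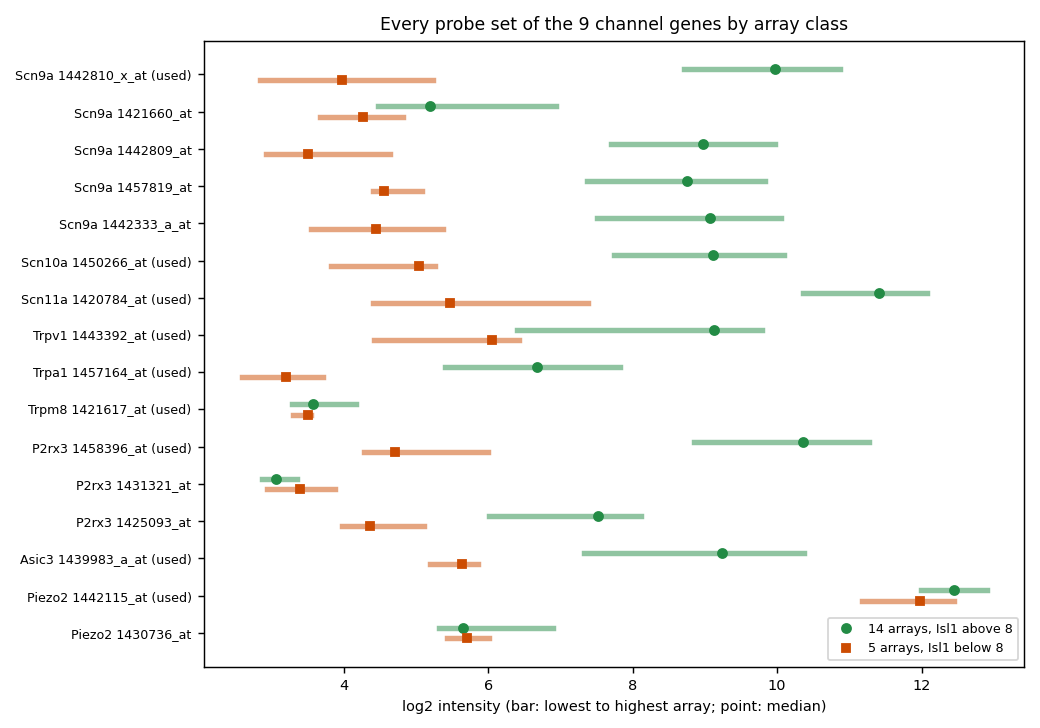
Range (bar) and median (point) of log2 intensity for all 16 probe sets of the 9 genes, green circles for the 14 arrays with log2 Isl1 above 8 and orange squares for the 5 below. Bars of the pair are apart in 10 probe sets, and both Piezo2 probe sets, the Trpm8 and Trpv1 probe sets, 1 of Scn9a and 1 of P2rx3 overlap.

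Other features moved with the same split, and their part in it was not tested. The Gapdh 3' minus 5' control difference, which grows as RNA breaks down, was 1.00 to 1.37 on the 14 arrays and reached 3.71, 4.38 and 1.75 on arrays DV706, DV707 and DR716. It was 1.24 and 1.23 on arrays DV709 and CR715, inside the range of the 14, and Scn9a was 4.48 and 3.004 there. A level for each marker list was taken as the mean of its genes after each gene was centred on its mean over the 19 arrays. The 12 neuronal content genes, pan-neuronal and sensory neuron genes such as Avil, Prph and Snap25 with no channel among them, had levels of 0.06 to 1.70 on the 14 arrays and -3.32 to -2.14 on the 5, and 12 of 12 separated. Genes listed as satellite glia markers had levels of 0.11 to 0.99 against -2.10 to -1.31, and 2 of 4 separated. Satellite glia is only the name of this list, and the source of its transcripts was not tested. Fabp7 was at 10.30 to 12.31 against 4.24 to 6.67, while Glul was at 13.33 to 13.68 against 13.46 to 13.76 and Cdh19 at 11.48 to 12.02 against 10.44 to 12.26. Peptidergic nociceptor markers separated in 3 of 3 tested genes of 5 listed, large-fibre markers in 3 of 6 and non-peptidergic markers in 2 of 4. Of all genes tested, 4.39% separated upward. Among the peptidergic genes, Adcyap1 was under the filter on all 5 arrays and Calcb on 4, so they passed it through the 14. The large-fibre markers Pvalb and Ntrk2 had medians of 11.51 and 10.38 on the 14 arrays and 11.84 and 10.44 on the 5. These counts therefore do not rank the neuron types. Endothelial markers ran from -0.74 to 0.46 on the 14 arrays and from 0.22 to 1.21 on the 5. Central glial genes moved with the split as well. Mog was at 4.02 to 5.32, Mobp at 4.05 to 7.20 and Gfap at 6.95 to 9.56 on the 5 arrays, below the ranges given above for 12 of the 14. Aqp4 was at 6.91 to 12.72 on all 14 arrays and at 3.23 to 5.37 on the 5.

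Of the 14 arrays, CV703 and DR720 stood apart in glial genes of the central nervous system. Mog was at 3.47 on DR720 and 3.60 on CV703, against 7.60 to 9.82 on the other 12 arrays, and Gfap, which some Schwann cells and satellite glia also express, at 7.54 and 8.54, against 11.64 to 12.36. On those arrays Scn10a was at 9.63 and 8.63 and Trpa1 at 6.97 and 5.82. Each group result was therefore also fitted without both.

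Other channels of the same families were listed by family, and their ranges on the 14 and the 5 arrays are given here. Of all genes tested, 4.39% separated upward and 1.56% downward. Of 11 other sodium channel subunits, 8 were tested and 1 separated, Scn1a, at 8.87 to 10.92 against 4.95 to 6.68, with a median difference over the list of 0.92. Scn7a, a sodium-sensing channel of glia, was at 12.30 to 12.73 against 12.23 to 13.10. Of 11 other TRP channels, 8 were tested, and Trpm3, a heat-gated channel, separated upward at 8.04 to 9.02 against 5.92 to 7.11, while Trpv4 separated downward at 6.60 to 7.18 against 7.62 to 7.93. Of 12 other P2X, ASIC and mechanically gated channels, 9 were tested and Asic1 alone separated, at 6.35 to 8.87 against 4.37 to 5.59. Piezo1, a mechanically gated relative of Piezo2, had ranges of 9.48 to 10.18 and 10.09 to 10.55. Of 20 other sensory neuron channels, 16 were tested and 9 separated, among them Htr3a, a serotonin-gated channel, at 6.54 to 9.11 against 3.51 to 5.002. Htr3a, and Kcnq3, Cacna1b and Chrna6 which also separated, were under the filter on all 5 arrays, and Asic1 on 4. They passed it through the 14, so the counts in these lists are a description only. The median difference of the 8 tested nociceptor channel genes was 3.87, against -0.05 over all genes tested, or 3.39 with values under the filter on the 5 arrays raised to it, against -0.05 over all genes in the same way, a difference that was known when they were chosen.

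Within the 14 arrays, group values were compared with limma. No channel gene passed an adjusted p of 0.05 in any of 7 comparisons (0 of 8 tested, against 0% of all 13460 genes in each), so the differences below are given as values with their intervals. Group means were lowest in control vehicle mice for all of the 8 tested genes but Trpv1. Scn9a averaged 10.07 ± 0.92 (SD, n = 4) in DR, 10.48 ± 0.54 (SD, n = 2) in DV, 10.10 ± 0.44 (SD, n = 4) in CR and 9.47 ± 0.38 (SD, n = 4) in CV arrays. Asic3 averaged 9.21 ± 1.29 in DR, 9.87 ± 0.71 in DV, 9.17 ± 0.34 in CR and 8.17 ± 0.75 in CV arrays, over the same numbers of arrays. Trpv1 averaged 8.57 ± 1.504 in DR, 9.51 ± 0.19 in DV, 9.08 ± 0.63 in CR and 8.70 ± 0.65 in CV arrays. The order DV, CR, DR and CV thus held for Scn9a and also for Scn10a, Scn11a, Trpa1 and P2rx3, with neighbours among DV, CR and DR apart by less than the larger SD of the pair. In the DR group, array DR719 had the lowest value in all 8 tested genes.

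Diabetes under vehicle, DV against CV, had 2 arrays against 4. All 8 tested genes were higher in DV, with a median log2 change of 0.91 (0.45 to 1.69) against 0.01 over all genes tested. Asic3 differed by 1.69 (SE 0.68, 95% interval 0.20 to 3.18) and Piezo2 by 0.45 (SE 0.18, 0.05 to 0.85), each with a limma adjusted p of 0.419 after Benjamini-Hochberg adjustment. Scn9a differed by 1.01 (SE 0.49, -0.05 to 2.08, limma adjusted p = 0.443). Piezo2 differed by 0.22 without array DV708 and 0.68 without array DV710, and by 0.25 with the mean of its probe sets (limma adjusted p = 0.673), and Scn9a differed by 0.63 without array DV708. At an unadjusted limma p under 0.05 there were 2 of the 8 channel genes, against 11.4% of all genes. The groups did not overlap in 4 of the 8, Scn9a, Trpv1, Asic3 and Piezo2, where 10.8% of all genes were higher and 10.7% lower without overlap. The 12 neuronal content genes moved the same way, with levels of 1.06 and 1.70 in DV arrays and 0.06 to 0.89 in CV arrays. So did a list of 11 genes picked as spinal cord markers, with levels of 1.03 to 1.897 in DV arrays and -0.95 to 1.07 in CV arrays. This spinal cord list mixes central glial genes, Slc17a6 and genes dim on all arrays, such as Chat and Mnx1. Spinal cord is therefore only the name of the list here. The part of the neuronal content genes or of this list in the result was not tested beyond the fits given below.

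Rosiglitazone in control mice, CR against CV, used the same CV arrays, so both comparisons share them. The 8 tested genes were higher in CR, with a median of 0.63 (0.26 to 0.99) against 0.02 over all genes. Scn11a differed by 0.63 (SE 0.35, 95% interval -0.13 to 1.38, limma adjusted p = 0.566), Asic3 by 0.99 (SE 0.56, -0.22 to 2.21, limma adjusted p = 0.567) and Piezo2 by 0.26 (SE 0.15, -0.06 to 0.59, limma adjusted p = 0.569). None of the 8 had an unadjusted p under 0.05, against 8.9% of all genes, and the groups overlapped in all 8, where 4.47% of all genes were higher and 4.26% lower without overlap. The content level was 0.74 to 1.34 in CR arrays and 0.06 to 0.89 in CV arrays, and the spinal cord level 0.40 to 1.62 in CR and -0.95 to 1.07 in CV arrays.

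Rosiglitazone in diabetic mice, DR against DV, gave lower values with the drug in all 8 tested genes, with a median of -0.36 (-0.95 to -0.12). Trpv1 differed by -0.95 (SE 0.76, 95% interval -2.60 to 0.70), Asic3 by -0.66 (SE 0.68, -2.15 to 0.83) and Trpa1 by -0.47 (SE 0.50, -1.56 to 0.62), with a limma adjusted p of 0.997 for each. None had an unadjusted p under 0.05, against 4.23% of all genes, and the groups overlapped in all 8, where 5.59% were higher and 4.03% lower without overlap. Without array DR719 the Trpv1 difference was -0.23 and those of Asic3 and Trpa1 -0.03 each. Asic3 differed by -0.16 without array DV708, -1.16 without array DV710 and -0.99 without array DR717, and Trpa1 by 0.17, -1.11 and -0.72. The content level was 0.10 to 1.49 in DR arrays and 1.06 to 1.70 in DV arrays, and the spinal cord level -1.41 to 0.82 in DR and 1.03 to 1.897 in DV arrays. The part of the spinal cord level in these differences was not tested.

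Diabetes under rosiglitazone, DR against CR, gave differences near 0, with a median of -0.01 (-0.51 to 0.07) and 6 of 8 genes lower in DR. Trpv1 differed by -0.51 (SE 0.62, 95% interval -1.86 to 0.84, limma adjusted p = 0.943), Piezo2 by 0.07 (SE 0.15, -0.26 to 0.39, limma adjusted p = 0.964) and Trpa1 by -0.04 (SE 0.41, -0.93 to 0.85, limma adjusted p = 0.991). None of the 8 had an unadjusted p under 0.05, against 5.66% of all genes, and the groups overlapped in all 8, where 1.73% were higher and 2.36% lower without overlap. The intervals span changes in either direction. Without array DR719 Trpv1 differed by 0.21 and Trpa1 by 0.40.

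Averaged over both treatments, diabetic minus control gave a median of 0.44 (0.15 to 0.87) with 8 of 8 genes higher. Piezo2 differed by 0.26 (SE 0.12, 95% interval 0.0020 to 0.51, limma adjusted p = 0.525), the single gene of the 8 with an unadjusted p under 0.05, against 9.48% of all genes. Asic3 differed by 0.87 (SE 0.44, -0.09 to 1.83, limma adjusted p = 0.545) and Scn9a by 0.50 (SE 0.32, -0.19 to 1.18, limma adjusted p = 0.621). Without array DV708 Piezo2 differed by 0.14 and Scn9a by 0.30. Averaged over both states, rosiglitazone minus vehicle gave a median of 0.14 (-0.28 to 0.24) with 6 of 8 higher. Scn11a differed by 0.22 (SE 0.27, -0.38 to 0.82), Scn10a by 0.24 (SE 0.36, -0.54 to 1.03) and Piezo2 by 0.07 (SE 0.12, -0.19 to 0.33), with a limma adjusted p of 1.00 for each and 0 of 8 at an unadjusted p under 0.05, against 4.96% of all genes.

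The interaction, the drug's difference in diabetic mice minus that in control mice, was negative in all 8 genes, with a median of -1.03 (-1.65 to -0.38). Asic3 had -1.65 (SE 0.88, 95% interval -3.57 to 0.27, limma adjusted p = 0.665), Scn9a -1.03 (SE 0.63, -2.41 to 0.34, limma adjusted p = 0.668) and Piezo2 -0.38 (SE 0.24, -0.90 to 0.13, limma adjusted p = 0.668). None had an unadjusted p under 0.05, against 6.97% of all genes. Without array DR719 the values were -1.02 for Asic3, -0.58 for Scn9a and -0.25 for Piezo2, and without array DV708 they were -0.65 for Scn9a and -0.15 for Piezo2, which had -0.61 without array DV710. The neuronal content genes had a median interaction of -0.63 with 0 of 12 above 0, and the 6 tested genes of the spinal cord list -2.05. With the content level as covariate the median of the 8 channel genes was 0.05 (-0.23 to 0.15), with 5 of 8 above 0.

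Most channel genes followed the neuronal content level closely across the 14 arrays, with the lowest pooled r among tested genes for Trpv1. Both sets are neuronal transcripts, chosen with these data known, so a strong correlation was likely beforehand. The permutations ignored the groups, between which the content level differed. How many of all genes follow the content level was not computed, so the p-values do not single out the channels. Scn9a had Pearson's r = 0.99 and Spearman's rho = 0.98 (permutation p = 1e-05 for each, the smallest that 100000 permutations can give, and adjusted p = 1.8e-05 and 3e-05 over 9 genes), and an r of 0.98 within groups. Its slope was 1.28 per unit of content with a residual SD of 0.11, the smallest residual of the 9. Scn10a, Scn11a, P2rx3 and Asic3 had r between 0.95 and 0.96, and rho between 0.90 and 0.96, with slopes of 1.42, 1.09, 1.40 and 1.84. Their permutation p was 1e-05 for r and at most 4e-05 for rho, with adjusted p of 1.8e-05 and at most 7.2e-05. Without the arrays farthest from the median content, CV705 and DR719, r was 0.98 for Scn9a and 0.90 to 0.92 for those 4.

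Trpa1 had r = 0.81 and rho = 0.85 (permutation p = 0.00042 and 0.00015, adjusted p = 0.00054 and 0.000193), with r = 0.77 without those arrays. Piezo2 had r = 0.87 and rho = 0.86 (permutation p = 5e-05 and 0.00012, adjusted p = 7.5e-05 and 0.00018), r = 0.77 without them, and a slope of only 0.44. Trpv1 had r = 0.75 and rho = 0.73 (permutation p = 0.00126 and 0.00404, adjusted p = 0.00142 and 0.00454), r = 0.76 without them, and the largest residual SD, 0.62. Trpm8, under the filter, had r = 0.51 and rho = 0.49 (permutation p = 0.0604 and 0.08, adjusted p = 0.0604 and 0.08). Within groups r was 0.84 for Trpv1, 0.80 for Piezo2, 0.77 for Trpa1 and 0.36 for Trpm8. Arrays DR719 and CV705 had like content levels, 0.10 and 0.06. Trpv1 was 6.40 and 8.76 on them and Trpa1 5.40 and 6.36, whereas Scn10a was 7.74 and 7.77 and Piezo2 12.15 and 11.99. These are values of 1 array each, with no test.

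**Figure D3:**
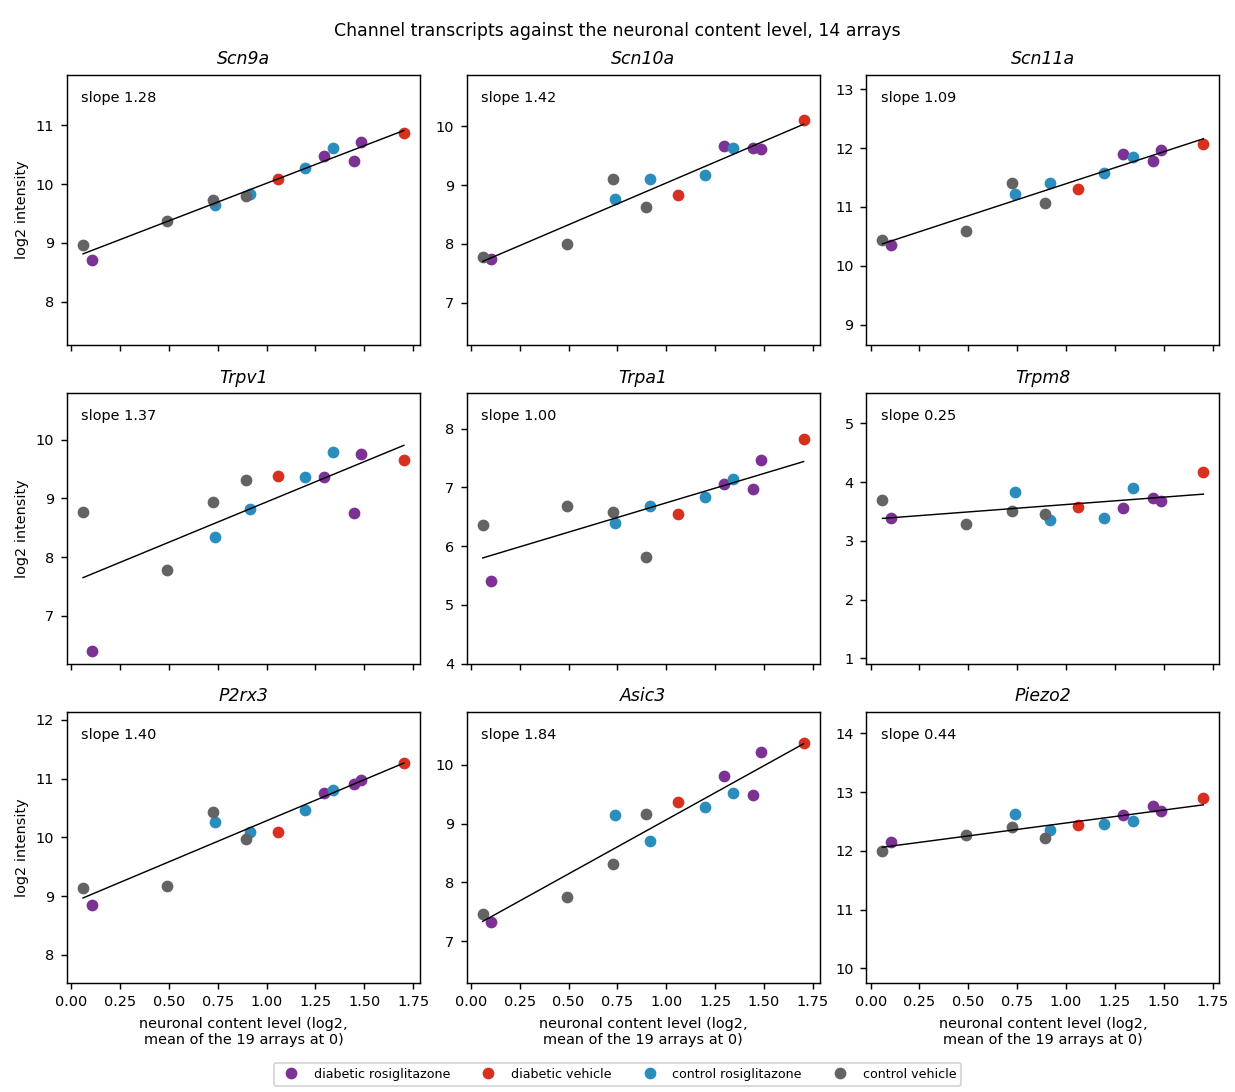
Log2 intensity of each channel gene (vertical axes, all spanning the same number of log2 units) against the level of the 12 neuronal content genes (horizontal axes) on the 14 arrays, coloured by group, with the least squares line and its slope. Scn9a lies on its line most tightly, Asic3 has the steepest slope at 1.84, Piezo2 and Trpm8 the flattest at 0.44 and 0.25, and the Trpv1 point at 6.40 is array DR719.

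With the content level as a covariate in the limma fit, the group differences of most channels were small. Under vehicle the median of the 8 genes was -0.11 (-0.65 to 0.21) with 2 of 8 higher in DV, against 0.91 without the covariate. Asic3 differed by 0.21 (SE 0.32), Scn9a by -0.10 (SE 0.14) and Piezo2 by 0.13 (SE 0.15). In control mice the median with the drug was 0.02 (-0.50 to 0.10), and for diabetes averaged over treatments it was -0.08 (-0.61 to 0.10). Trpv1 stood furthest from 0 in those 3 comparisons, at -0.65 (SE 0.52), -0.50 (SE 0.40) and -0.61 (SE 0.32), and its smallest limma p, 0.0805 for diabetes averaged over treatments, was unadjusted (adjusted p = 0.615). The covariate is itself a set of neuronal transcripts on the same arrays and also differed between groups, so neuronal content and group cannot be fully told apart here. With Isl1 as the covariate, the CR against CV median was 0.44 (0.06 to 0.71) with 8 of 8 higher in CR, and the smallest limma adjusted p of the channel genes was 0.481. In that fit 4 of the 8 had an unadjusted limma p under 0.05, and the share over all genes was not computed. Isl1 is also the gene that split the arrays.

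**Figure D4:**
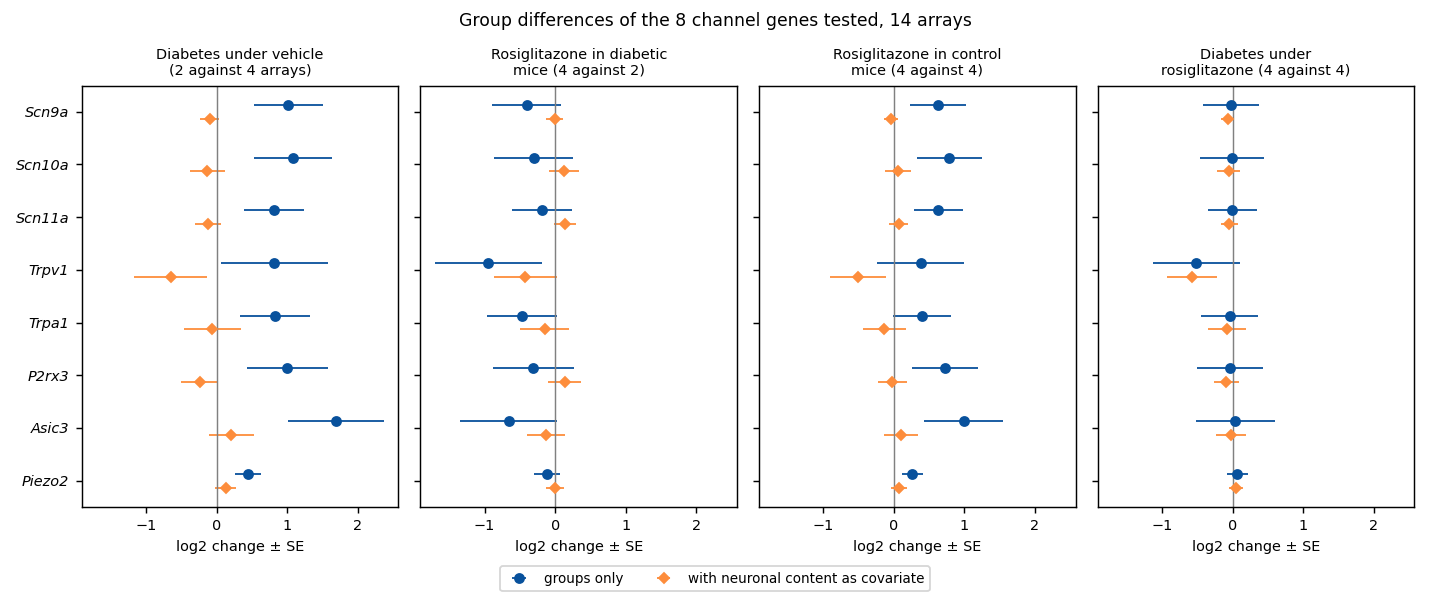
Log2 change with its SE (horizontal axes) of the 8 tested channel genes in 4 group comparisons on the 14 arrays, blue circles for the fit of groups only and orange diamonds for the fit with the neuronal content level as covariate. In the first and the third panel the blue points lie right of 0 for all 8 genes and the diamonds lie closer to 0 for all of them in the first and for all but Trpv1 in the third, and no difference passed the adjusted threshold.

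The channels also varied together. Over the 36 pairs of the 9 genes, Pearson's r across the 14 arrays ran from 0.45 to 0.99 with a median of 0.82. The 10 pairs among Scn9a, Scn10a, Scn11a, P2rx3 and Asic3 had r of 0.91 to 0.99. The highest was 0.993 for the neighbours Scn10a and Scn11a, whose promoters are shown above. Scn11a and P2rx3, on different chromosomes, came close at 0.985. The 8 pairs with Trpm8, dim throughout, had 0.45 to 0.64, and Trpv1 with Piezo2 had 0.48. These arrays share their neuronal content, so the values are given as a description.

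Among 13452 other tested genes, those closest to the mean of the channels over the 14 arrays were Add2, a membrane skeleton protein (r = 0.99), Ralyl, Slit1, Fgf13 and Tmem151b (r = 0.98 each), and Pirt, Tmem74 and Slc17a6 (r = 0.97 each). Pirt encodes a membrane protein that modulates Trpv1 in sensory neurons, Fgf13 binds sodium channels, and Slc17a6 loads glutamate into synaptic vesicles. The median r over those genes was -0.05, and 248 exceeded 0.9.

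The other channel lists were set beside these in the comparisons averaged over treatments and states, and 0 of their tested genes passed the adjusted limma threshold. For diabetes averaged over treatments, an unadjusted p under 0.05 was reached by 2 of 8 other sodium channel subunits, 0 of 8 other TRP channels, 1 of 9 other P2X, ASIC and mechanically gated channels and 3 of 16 other sensory neuron channels, all higher. Of all genes tested 9.48% reached it, in either direction, and the lists were not tested against that share. For rosiglitazone averaged over states it was reached by 0 in each list, against 4.96% of all genes. Scn3b, a sodium channel beta subunit, averaged 8.37 ± 0.17 in DR, 8.74 ± 0.28 in DV, 8.36 ± 0.22 in CR and 7.95 ± 0.17 in CV arrays (SD, numbers of arrays as for Scn9a). Its diabetic minus control difference was 0.40 (SE 0.11, limma adjusted p = 0.309). Htr3a differed by 0.91 (SE 0.28, limma adjusted p = 0.398), Chrna6, a nicotinic receptor subunit, by 0.75 (SE 0.29, adjusted p = 0.480), Scn4b, a further beta subunit, by 0.61 (SE 0.25, adjusted p = 0.486) and P2rx6 by 0.33 (SE 0.13, adjusted p = 0.477). Trpm7, a channel with a kinase domain, differed by -0.10 (SE 0.06, adjusted p = 0.620). For rosiglitazone averaged over states, Trpm4 differed by 0.23 (SE 0.11) and Piezo1 by 0.22 (SE 0.11), with a limma adjusted p of 1.00 for each.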

How the data were processed

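Transcripts were measured with Affymetrix arrays in sciatic nerve of 19 mice, 1 array each, after RNeasy extraction and NuGEN Ovation labelling per the labels' protocols. The authors deposited a linear intensity for each probe set on each array, processed with RMA per the submitters' processing notes, which give no version and no step from RMA's log2 output to a linear scale. Intensities ran from 3.76 to 30602. Of 45101 probe sets, 34945 had 1 symbol in the platform annotation, 932 several and 9160 none, and 64 were controls. Of 18193 genes, 18032 had an identifier in RefSeq's gene table, and 0 of those symbols differed.

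Deposited intensities were put on the log2 scale without an offset, and per gene the probe set of highest mean over 19 arrays was used. Genes with a mean above the 40th percentile, a log2 intensity of 5.54, were tested, 13460 in all and 8 of the 9 channel genes. With limma 3.58.1 (R 4.3.3, eBayes, two-sided), a mean for each group given in the titles was fitted on the 14 arrays with log2 Isl1 above 8, with Benjamini-Hochberg adjustment over all genes tested at 0.05. The fit was tested on simulated data. The number of arrays limits the precision. No test was made between the 14 and the 5 arrays, and folds between them are lower bounds with log2 values under 5.54 on the 5 arrays raised to 5.54. Correlations used two-sided permutation tests with 100000 resamples (numpy 2.4.6), with Spearman's rho and the adjustment from scipy 1.17.1.

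The channel genes and lists were chosen with earlier results of these data known. In each comparison the 3 channel genes with the smallest p were named, with the 2 such genes of each other channel list over the first 2 comparisons and the 8 genes closest in pattern. Other genes named for their values on the 14 and the 5 arrays were chosen after these were seen. Alternatives were all 19 arrays, each array left out, Isl1 or neuronal content as covariate, no filter or the 60th percentile, quantile normalization, array weights, the mean of all probe sets, and a variance trend with robust estimation. Leaving out arrays CV703 and DR720 together was chosen after seeing the data.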

Additional observations from a re-analysis of the deposited data

Results flagged for a closer look

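Array DR719 stood apart from the other 3 diabetic rosiglitazone arrays above the Isl1 limit in 4 channel genes, where the gap to the nearest array, over the range of the group, exceeded Dixon's 95% critical value of 0.829. Scn9a was at 8.72 on it against 10.40 to 10.72 on the others, Scn10a at 7.74 against 9.61 to 9.66, Scn11a at 10.36 against 11.78 to 11.97 and P2rx3 at 8.85 against 10.75 to 10.97. These were 4 of 27 groups checked, and all 4 are the same array. The 4 genes vary together across the arrays, so the flags are not independent and the count was not set against a chance rate. On that array the neuronal content level was 0.10, the lowest of its group, against a group mean of 1.08, and Isl1 was 9.47, while its Gapdh 3' minus 5' difference of 1.00 was within the range of the 14 arrays. Their part in these low values was not tested.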

How the results depend on the processing

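No channel gene passed the adjusted threshold in any comparison under any alternative run. Over named genes and settings 476 values kept their direction and 26 reversed, and of the counts past the threshold 329 were within range of the main one and 7 moved. With single arrays left out, the genes past the threshold numbered 0 to 4 for diabetes averaged over treatments, 0 to 20 for diabetes under vehicle, 0 to 5 for rosiglitazone in diabetic mice, 0 to 2 for diabetes under rosiglitazone and 0 to 13 for the interaction. The highest was reached without array DR718 for diabetes under rosiglitazone and without array DV710, which leaves 1 diabetic vehicle array assumed to vary like the other groups, for the rest. With all 19 arrays, 3 of 5 diabetic vehicle arrays being low in neuronal transcripts, Asic3 and Scn9a differed by -0.47 and -1.29 for diabetes averaged over treatments and by -0.97 and -2.53 under vehicle. Trpv1, Asic3 and Trpa1 differed by 1.16, 1.29 and 1.08 for the drug in diabetic mice, Scn11a and Piezo2 by -0.58 and -5.1e-04 for the drug in control mice, and Asic3, Scn9a and Piezo2 by 1.00, 2.48 and 0.069 for the interaction. With neuronal content as covariate Scn9a differed by -0.081 for diabetes averaged over treatments, by -0.10 under vehicle and by 0.031 for the interaction. With Isl1 as covariate Asic3 differed by 0.11 for the drug in diabetic mice and Trpa1 by 0.012 for diabetes under rosiglitazone, and with array weights Trpa1 differed there by 0.15. Without arrays CV703 and DR720 Piezo2 differed there by -0.0055, and the medians of the 8 genes were 1.06 for diabetes under vehicle and 0.71 for the drug in control mice. With single arrays left out, the difference ranged from -0.077 to 0.56 for Scn10a and from -0.044 to 0.19 for Piezo2 with the drug averaged over states, and from -1.11 to 0.17 for Trpa1 with the drug in diabetic mice. For diabetes under rosiglitazone it ranged from -0.91 to 0.21 for Trpv1, from -0.0055 to 0.20 for Piezo2 and from -0.29 to 0.40 for Trpa1. The cause of these reversals was not tested. No paired analysis was possible because the groups share no replicate number. The 14 arrays include 2 of the diabetic vehicle group, and signals near or under a log2 intensity of 5.54, as for Trpm8 and for most channels on the 5 arrays, have no resolved order.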
